A study of Homo sapiens with 21 samples.

Results

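The comparison set MCF10A cells harvested 240 min after addition of epidermal growth factor (EGF) against the same cells harvested untreated at 0 min, across all genes that the arrays measured well enough to test. It used 6 of the 21 arrays of the study, which holds 3 arrays at each of 7 times: 3 arrays of cells given EGF at 20 ng/ml for 240 min, and 3 arrays of untreated cells. The arrays at 120 and 480 min of EGF, also 3 each, were used to place the 240 min levels in time. MCF10A is an immortalised, non-tumorigenic line of human mammary epithelial cells. Cells of every group had been plated for 24 h in medium lacking EGF and then starved for 24 h with horse serum reduced to 1%, so the untreated group is one of starved cells. The labels call the replicates biological triplicates. All of them came from this single line, and their small number limits the precision of every value. No untreated cells harvested 240 min later were analysed here, so EGF cannot be told apart from handling and time in culture. In these bulk samples fewer cells of a type and less RNA per cell cannot be told apart either.

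EGF binds the receptor EGFR and signals through RAS to the kinase ERK and through PI3K to the kinase AKT. ERK first induces short-lived transcription factors of the FOS, EGR and NR4A families, and later a wider set of genes that includes its own inhibitors, among them DUSP phosphatases and Sprouty proteins. AKT phosphorylates FOXO transcription factors and keeps them out of the nucleus, and FOXO targets in resting cells include brakes on growth and survival. MCF10A cells need added EGF to proliferate, and with it they pass from quiescence through G1 into DNA replication.

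Of 16614 genes tested, 3281 differed between 240 min of EGF and untreated cells, which is 19.7% of them. A gene is called here when its adjusted p from limma, with Benjamini-Hochberg adjustment over all genes tested, was below 0.05. Calls were higher at 240 min for 2249 genes (13.5%) and lower for 1032 (6.21%), so 68.5% of the calls were higher. Levels are log2(intensity + 16), the median over a gene's probesets, and a change is the difference of the group means on that scale, so changes of dim genes come out smaller than they are. The change reached 1 or more for 325 genes that were higher (1.96% of all tested) and for 58 that were lower (0.349%). The median change was 0.60 over the genes called higher, -0.49 over those called lower and 0.02 over all genes tested. Among called genes, the 3 arrays at 240 min lay wholly above or wholly below the 3 untreated arrays in 3220 (19.4% of all tested), and a median of 92.3% of a called gene's probesets moved in its direction. At an unadjusted p under 0.05 there were 5175 genes. Without replicate 3 at 240 min, 1479 genes were called higher.

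The arrays had median intensities between 20.44 and 20.56 in the whole series. Across genes, arrays of 1 group correlated at 0.981 to 0.987 at 240 min and at 0.951 to 0.973 in untreated cells, and arrays of different groups at 0.912 to 0.938. A further measure of array quality, the median log2 signal of probesets assigned to 1 gene minus that of unnamed probesets, stood at 1.26, 1.31 and 1.33 on the 240 min arrays and at 1.21, 1.24 and 1.25 on the untreated arrays, so it moved with the comparison. With this measure as a covariate the split of calls was 2109 higher and 1662 lower, and 55.9% were higher. The basal mammary markers fixed for the label were strong in both groups: the keratin gene KRT5 averaged 12.43 at 240 min and 12.47 untreated, and TP63, a transcription factor of basal cells, 9.39 and 9.23. The summed intensity of 6 basal markers ranged from 12631 to 13864 at 240 min and from 12191 to 14164 untreated. Luminal keratin genes were strong as well, with KRT8 averaging 9.95 at 240 min and 9.84 untreated. The 6 luminal markers tested summed to between 1715 and 1835 at 240 min and between 1566 and 1766 untreated. The 3 immune markers summed to between 154 and 159 at 240 min and between 138 and 181 untreated. The 5 fibroblast markers tested summed to between 374 and 377 at 240 min and between 481 and 537 untreated, and their part in other results was not tested.

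**Figure D1:**
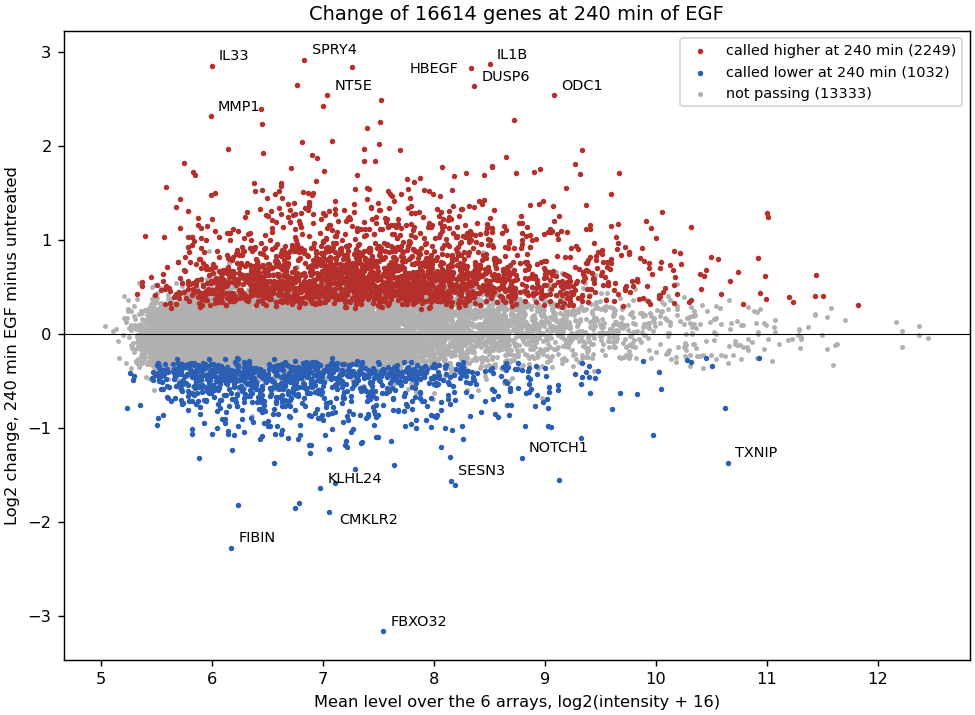
Each point is 1 of 16614 genes, plotted by its mean level over the 6 arrays (log2 of intensity plus 16, horizontal) and its log2 change, 240 min EGF minus untreated (vertical). Red points are the 2249 genes called higher, blue the 1032 called lower and grey the rest, and the largest called changes are 2.91 and -3.17.

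The largest rises at 240 min were in genes for inhibitors of receptor signalling, cytokines, EGFR ligands and enzymes. SPRY4, a Sprouty inhibitor of signalling from receptor tyrosine kinases to ERK, stood at 8.24, 8.27 and 8.35 on the 240 min arrays and at 4.95, 5.51 and 5.66 on the untreated arrays. The groups lay far apart, and the rise was 2.91 ± 0.16 (SE, n = 3 arrays per group), or 7.54-fold on the intensity plus 16 scale (adjusted p = 2.9e-11). IL1B, which encodes the inflammatory cytokine interleukin 1 beta, stood at 9.93, 9.91 and 9.96 at 240 min and at 6.76, 7.33 and 7.11 untreated, a rise of 2.87 ± 0.13. Its 240 min arrays were almost equal. IL33, an alarmin of the same family, stood at 7.23, 7.49 and 7.54 at 240 min and at 4.53, 4.74 and 4.44 untreated. Untreated, it was dimmer than the typical probeset, so its rise of 2.85 ± 0.17 ranged from 1.25 to 3.94 over the alternative settings. These untreated levels lay below the filter on dim probesets, at 5.177. The probesets of IL33 could thus pass that filter through the arrays of EGF-treated cells. HBEGF, a membrane-bound ligand of EGFR that is released by cleavage, stood at 9.71, 9.74 and 9.80 at 240 min and at 6.58, 7.27 and 6.92 untreated. It rose by 2.83 ± 0.16.

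Among the other genes of the 15 largest rises, DUSP6, whose phosphatase inactivates ERK, rose by 2.63 ± 0.11 and ODC1, which encodes ornithine decarboxylase of polyamine synthesis, by 2.54 ± 0.13. ODC1 stood at 10.39, 10.32 and 10.34 at 240 min and at 7.59, 7.85 and 7.999 untreated, and all of its 16 probesets moved up. NT5E, whose product makes extracellular adenosine from AMP, stood at 8.26, 8.29 and 8.35 at 240 min and at 5.50, 5.82 and 5.98 untreated. LRAT, which esterifies retinol, rose by 2.49 ± 0.15, the AP-1 subunit gene FOSL1 by 2.42 ± 0.14, and AGPAT9, an acyltransferase gene under its annotated symbol, by 2.39 ± 0.15 (1.52 to 2.86 over the alternatives). MMP1, the interstitial collagenase, stood at 7.09, 7.11 and 7.24 at 240 min and at 4.85, 4.73 and 4.91 untreated, a rise of 2.31 ± 0.13 (1.31 to 2.92 over the alternatives). Its untreated levels lay below the probeset filter at 5.177, so its probesets could pass that filter through the arrays of EGF-treated cells. The phosphate transporter gene SLC20A1 rose by 2.28 ± 0.18 and PAQR5, a membrane progestin receptor gene, by 2.25 ± 0.11. The adjusted p of the 15 genes lay between 4.7e-13 for DUSP6 and 6.5e-09 for SPRR2A.

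SPRR2A, a small proline-rich protein of the cornified envelope, and CXCL8, the neutrophil-attracting chemokine interleukin 8, belong to the same 15. SPRR2A stood at 8.53, 8.58 and 8.94 at 240 min and at 5.57, 6.53 and 5.43 untreated, a rise of 2.84 ± 0.22 that rests on 3 probesets. CXCL8 stood at 8.04, 8.003 and 8.21 at 240 min and at 5.79, 4.84 and 5.70 untreated, a rise of 2.64 ± 0.19. In both genes the untreated arrays spread more widely than the 240 min arrays. Probesets of the SPRR2 and CXCL families may also take up transcripts of near-identical copies, so these values are uncertain as to the copy. The 250 bases before their starts are shown because both hold a match to TGANTCA, the letters bound by AP-1, the dimer of FOS and JUN family proteins. They are from the RefSeq promoter table of GRCh38.p14, SPRR2A on the minus strand of chr1:153057513-153057762 and CXCL8 on the plus strand of chr4:73740319-73740568, with the match in capitals.
SPRR2A: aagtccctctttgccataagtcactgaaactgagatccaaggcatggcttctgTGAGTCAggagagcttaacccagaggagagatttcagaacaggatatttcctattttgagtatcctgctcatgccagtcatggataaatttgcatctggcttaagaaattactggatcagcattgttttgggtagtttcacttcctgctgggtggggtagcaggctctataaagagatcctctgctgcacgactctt
CXCL8: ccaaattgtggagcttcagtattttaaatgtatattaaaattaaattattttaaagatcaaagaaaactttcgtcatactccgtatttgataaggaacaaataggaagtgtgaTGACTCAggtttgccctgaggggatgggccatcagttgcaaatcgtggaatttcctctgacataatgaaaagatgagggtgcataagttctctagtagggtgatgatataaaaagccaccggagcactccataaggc
The match began 197 bases before the start of SPRR2A and 137 bases before that of CXCL8. On either strand it occurred in 22 of 240 promoters of genes higher by 1 or more (9.17%) and in 5 of 46 of genes lower by 1 or more (10.9%), so it was not commoner in the larger rises than in the larger falls. It was held by 5.53% of 1828 promoters of all genes called higher, 3.39% of 826 of those called lower, 4.51% of 13067 promoters of tested genes and 6.60% of all 27305 in the table. These shares are a description of letters and show no binding.

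**Figure D2:**
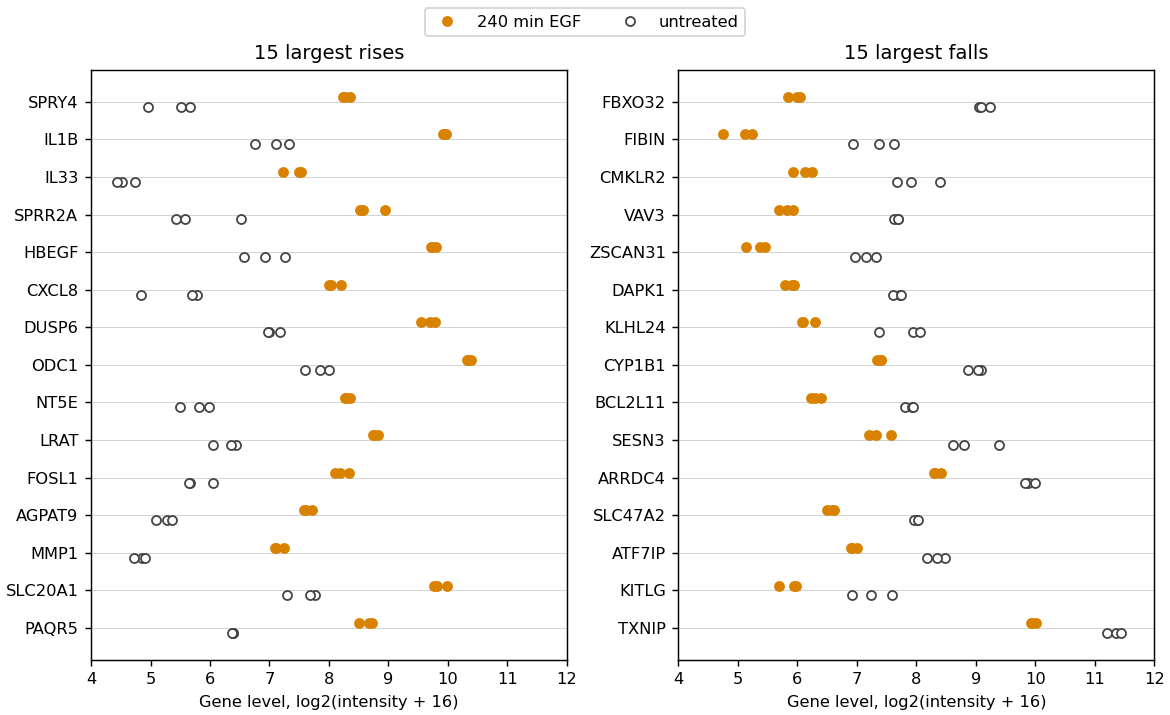
Levels (log2 of intensity plus 16, horizontal) of the 15 largest rises (left panel) and the 15 largest falls (right panel) among called genes with groups apart. Filled orange points are the 3 arrays at 240 min of EGF and open points the 3 untreated arrays. In each of the 30 genes the groups do not overlap, as the choice required.

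The largest falls were led by FBXO32, which encodes a ubiquitin ligase subunit known from muscle wasting. It stood at 5.84, 6.04 and 5.998 at 240 min and at 9.05, 9.08 and 9.23 untreated. The level at 240 min was 0.111 times the untreated level on the intensity plus 16 scale, the change was -3.17 ± 0.12 (adjusted p = 1.1e-13), and all of its 14 probesets fell. FIBIN stood at 5.24, 5.11 and 4.75 at 240 min and at 6.94, 7.62 and 7.37 untreated, a change of -2.28 ± 0.24 (-3.04 to -1.36 over the alternatives). CMKLR2, a chemerin receptor gene, changed by -1.89 ± 0.15, and VAV3, an exchange factor for small GTPases, by -1.86 ± 0.16, though by only -0.38 when dim probesets were kept. DAPK1, a kinase gene named for its link to cell death, stood at 5.79, 5.95 and 5.91 at 240 min and at 7.72, 7.61 and 7.74 untreated, with all of its 32 probesets lower. KLHL24, an adaptor of cullin ubiquitin ligases, fell by 1.64 ± 0.16 and CYP1B1, a cytochrome P450 gene, by 1.61 ± 0.12. BCL2L11, which encodes the death-promoting protein BIM, stood at 6.30, 6.40 and 6.23 at 240 min and at 7.82, 7.93 and 7.95 untreated. The remaining genes of the 15 were ZSCAN31, SESN3, ARRDC4, SLC47A2, ATF7IP, KITLG and TXNIP, with changes from -1.83 ± 0.17 for ZSCAN31 to -1.37 ± 0.10 for TXNIP. KITLG, which encodes the ligand of the receptor KIT, stood at 5.69, 5.98 and 5.94 at 240 min and at 7.59, 6.92 and 7.24 untreated (-1.66 to -0.87 over the alternatives), and ZSCAN31 ranged from -2.35 to -1.11.

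The ligands of EGFR and its relatives formed a group in which 4 of 9 genes tested rose and none fell, beside 13.5% and 6.21% of all genes. HBEGF is described above. TGFA stood at 8.33, 8.19 and 8.55 at 240 min and at 6.33, 6.45 and 6.39 untreated, a rise of 1.97 ± 0.15. EREG, which encodes epiregulin, rose by 1.48 ± 0.14 and NRG1, a ligand of ERBB3 and ERBB4, by 1.28 ± 0.13 (0.78 to 1.47 over the alternatives). All 4 calls held in each of the 17 alternatives. The receptors moved little: EGFR stood at 9.27, 9.37 and 9.14 at 240 min and at 9.06, 9.12 and 9.0 untreated, which did not pass (adjusted p = 0.29), and ERBB2 changed by -0.24 ± 0.11 (adjusted p = 0.15). ERBB3 fell by 0.48 ± 0.10, and ADAM17, the protease that releases several of these ligands, rose by 0.45 ± 0.14, a call lost in 5 alternatives.

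Of 12 MAP kinase phosphatase genes tested, 6 rose and none fell, beside 13.5% and 6.21% of all genes, with a list median of 0.24. DUSP7 stood at 9.84, 9.70 and 9.73 at 240 min and at 8.16, 7.99 and 7.97 untreated, a rise of 1.72 ± 0.11, and DUSP4 rose by 1.64 ± 0.11. DUSP7, like DUSP6, is a cytoplasmic phosphatase of ERK, and DUSP4 a nuclear one. DUSP1, an immediate early phosphatase gene, was still 1.00 ± 0.13 above untreated. Of 15 Sprouty, SPRED and receptor-level inhibitor genes, 9 rose and 2 fell, with a median of 0.54. PHLDA1 rose by 1.88 ± 0.13, SPRED2 by 0.79 ± 0.14 and ERRFI1, whose product binds and inhibits EGFR, by 0.73 ± 0.13. CBLB, a ubiquitin ligase for receptors, went the other way, at 6.64, 6.53 and 6.65 at 240 min and at 7.59, 7.83 and 7.95 untreated, with all of its 28 probesets lower. Among 15 regulators of mRNA decay and proliferation, 4 rose and 1 fell, beside 13.5% and 6.21% of all genes, with a median of 0.00. They included ZFP36L2 and ZFP36, whose products bind AU-rich elements and shorten mRNA life, at 0.92 ± 0.14 and 0.62 ± 0.15. The call of HNRNPD, the 1 that fell, had 9 of 22 probesets in its direction and turned to 0.02 with the mean of the probesets.

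Of 29 immediate early transcription factor genes, 11 were still higher at 240 min and 2 were lower, with a median of 0.28, and 6 of the 11 held in every alternative. Over all genes tested, 13.5% were called higher and 6.21% lower. FOS stood at 6.87, 7.16 and 7.51 at 240 min and at 5.68, 5.99 and 5.06 untreated, a rise of 1.61 ± 0.21 (1.01 to 2.03 over the alternatives). IER3 rose by 1.32 ± 0.09 and KLF6 by 0.75 ± 0.15. FOSL2, an AP-1 subunit gene, was lower at 8.16, 8.08 and 8.04 at 240 min than untreated, at 8.77, 8.96 and 8.71, and the EGR corepressor gene NAB2 fell by 0.46 ± 0.10. FOSB, EGR1, EGR3, NR4A1 and NR4A3 did not pass, with changes of 0.09, 0.28, 0.28, -0.01 and -0.08. Of 20 later transcriptional regulators, 10 rose and 2 fell, with a median of 0.40. FOSL1, the largest rise of both lists, is counted in each. ETS1, an ETS factor gene, stood at 9.13, 9.03 and 8.90 at 240 min and at 7.30, 7.22 and 7.51 untreated. The chromatin protein gene HMGA2 rose by 1.34 ± 0.13 (0.89 to 1.63 over the alternatives), ETV5 by 1.07 ± 0.14 (0.64 to 1.37 over the alternatives) and HIF1A by 0.92 ± 0.13. The 2 that fell, NFIL3 and MYBL1, lost their calls in 7 and 8 alternatives, and NFIL3 turned to 0.24 with the stricter filter.

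In the list of interleukin 1 family and gp130 cytokine genes, 9 of 16 tested rose and none fell, the median was 0.77, and all 9 held in every alternative that gave a value. Over all genes tested, 13.5% were called higher and 6.21% lower. LIF, a cytokine that signals through gp130, stood at 7.04, 7.21 and 7.14 at 240 min and at 5.30, 5.14 and 5.05 untreated. IL1RAP, the shared receptor subunit for interleukin 1 and interleukin 33, rose by 1.68 ± 0.15, IL1A by 1.71 ± 0.22 and IL24 by 1.69 ± 0.16. IL36G rose by 1.82 ± 0.23 and IL1RN, the natural antagonist of the interleukin 1 receptor, by 1.00 ± 0.17. These dimmer genes depended on the settings, from 0.78 to 2.39 for IL24, 0.95 to 2.77 for IL36G, 0.63 to 1.86 for IL1RN and 1.17 to 2.59 for LIF. Of 10 chemokine genes, 5 rose and none fell, with a median of 0.43. CXCL2 stood at 7.40, 7.59 and 7.66 at 240 min and at 5.97, 6.35 and 6.25 untreated, and CXCL1 rose by 1.07 ± 0.15. CCL20, which attracts cells that carry CCR6, rose by 1.34 ± 0.13 (0.69 to 1.96 over the alternatives). Of 17 genes for NF-kB subunits, inhibitors and targets, 9 rose and 1 fell, with a median of 0.35 and 5 of the 9 held throughout. TNFAIP3, a ubiquitin-editing inhibitor of NF-kB, rose by 0.69 ± 0.11 and RELA by 0.50 ± 0.12, while REL was lower at 6.80, 6.85 and 6.81 at 240 min than untreated, at 7.55, 7.78 and 7.60.

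Of 19 plasminogen activation and metalloproteinase genes, 11 rose and 2 fell, beside 13.5% and 6.21% of all genes, with a median of 0.64. MMP10 stood at 6.41, 6.66 and 6.99 at 240 min and at 5.11, 5.03 and 4.76 untreated, and the gelatinase gene MMP9 rose by 1.61 ± 0.12. The untreated levels of MMP10 also lay below the probeset filter at 5.177. PLAT, the tissue plasminogen activator, stood at 9.50, 9.64 and 9.49 at 240 min and at 8.23, 8.07 and 8.23 untreated. The protease inhibitor genes SERPINE2 and TIMP1 rose as well, by 1.61 ± 0.14 and 1.11 ± 0.17, and MMP10 ranged from 0.94 to 2.06 over the alternatives. Of 20 adhesion, laminin and hyaluronan genes, 13 rose and 2 fell, with a median of 0.60. The collagen receptor subunit gene ITGA2 stood at 10.19, 10.16 and 10.16 at 240 min and at 8.09, 8.52 and 8.49 untreated, and all of its 34 probesets rose. FERMT1, which encodes the integrin activator kindlin-1, rose by 1.78 ± 0.11, ITGB6 by 1.25 ± 0.24 and LAMB3, a laminin chain, by 0.86 ± 0.10. HAS3, a hyaluronan synthase gene, rose by 1.30 ± 0.11, with 4 of 9 probesets in its direction and a range of 0.68 to 1.89. The tensin genes split, with TNS3 lower by -0.86 ± 0.14 and TNS4 higher by 0.57 ± 0.10. Of 22 SRF and YAP targets, 12 rose and 2 fell, with a median of 0.43. CAPN2, VCL and ZYX, all of focal adhesions, rose by 1.17 ± 0.14, 0.93 ± 0.11 and 0.92 ± 0.11, and TGM2, a crosslinking enzyme, by 1.13 ± 0.10 (0.74 to 1.40 over the alternatives).

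In the list of FOXO targets and quiescence genes, 15 of 30 tested fell and none rose, beside 6.21% and 13.5% of all genes, and the median was -0.41. Of the 15 falls, 11 held in every alternative. SESN3, a sestrin that restrains the growth kinase mTORC1, stood at 7.21, 7.58 and 7.32 at 240 min and at 9.39, 8.61 and 8.80 untreated. ARRDC4, an alpha-arrestin gene, stood at 8.31, 8.42 and 8.30 at 240 min and at 9.88, 9.83 and 9.997 untreated. SESN3 and ARRDC4, both among the 15 largest falls, changed by -1.56 ± 0.16 and -1.56 ± 0.11. SESN1 fell by 1.18 ± 0.23, PIK3IP1, an inhibitor of PI3K, by 1.01 ± 0.12 (-1.32 to -0.56 over the alternatives), the repressor gene BCL6 by 0.90 ± 0.15 and CDKN1B, which encodes the CDK inhibitor p27, by 0.80 ± 0.16. The genes for the factors themselves did not pass: FOXO1 stood at 7.52, 7.34 and 7.79 at 240 min and at 7.42, 7.82 and 7.79 untreated, and FOXO3 changed by -0.10 ± 0.09. PDK4, called at -0.53 ± 0.15, turned to 0.28 with the stricter filter on dim probesets.

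TXNIP, an alpha-arrestin that limits glucose uptake and binds thioredoxin, stood at 9.93, 10.01 and 9.94 at 240 min and at 11.21, 11.35 and 11.44 untreated. Its change was -1.37 ± 0.10 with all of its 15 probesets lower. The 250 bases before its start are shown because TXNIP held the only match to GTAAACA, the core letters bound by FOXO factors, among the 27 promoters of the list that the RefSeq table of GRCh38.p14 holds. The stretch is the minus strand of chr1:145996580-145996829, with the match in capitals.
TXNIP: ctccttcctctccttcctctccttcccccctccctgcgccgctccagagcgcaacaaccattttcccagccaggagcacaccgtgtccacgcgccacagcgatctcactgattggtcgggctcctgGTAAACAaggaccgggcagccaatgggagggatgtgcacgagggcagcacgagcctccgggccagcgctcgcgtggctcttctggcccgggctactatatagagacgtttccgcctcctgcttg
The match began 124 bases before the start. On either strand it occurred in 2.06% of 13067 promoters of tested genes and in 2.98% of all 27305. It was held by 2.78% of 826 promoters of genes called lower, 2 of 46 of those lower by 1 or more and 2.02% of 1828 of those called higher. For most of the genes that fell these letters are thus not in this window, which says nothing about the factor at other sites.

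Cell cycle brakes and death genes moved in both directions. Over all genes tested, 13.5% were called higher and 6.21% lower. Of 25 CDK inhibitor and p53 target genes, 2 rose and 4 fell, with a median of -0.03, and all 6 calls held in every alternative. TP53INP1 stood at 7.72, 7.64 and 7.74 at 240 min and at 8.998, 8.69 and 8.76 untreated. MDM2, the ubiquitin ligase for p53, changed by -0.79 ± 0.13 and CDKN1C, which encodes the CDK inhibitor p57, by -0.68 ± 0.13, with ranges of -0.91 to -0.52 and -0.82 to -0.24. PLK3 rose by 0.91 ± 0.10 and SFN, which encodes 14-3-3 sigma, by 0.62 ± 0.10. Of 17 BCL2 family genes, 5 rose and 1 fell, with a median of 0.13. The survival gene MCL1 stood at 10.57, 10.48 and 10.50 at 240 min and at 9.26, 9.54 and 9.40 untreated, and BCL2L1, whose main product protects cells, rose by 0.76 ± 0.10 (0.48 to 0.83). The death-promoting genes BAK1 and BOK rose too, by 1.11 ± 0.13 and 0.72 ± 0.11, while BCL2L11, described above, fell by 1.59 ± 0.15.

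Of the 39 gene lists, the one for the machinery that builds ribosomes had the largest share of rises. Of 40 genes for ribosome assembly and RNA polymerase I, 31 rose and none fell, the median was 0.70, and 26 of the 31 held in every alternative. RRP9, a component of a small nucleolar ribonucleoprotein that processes ribosomal RNA, stood at 8.40, 8.45 and 8.30 at 240 min and at 7.17, 7.31 and 7.29 untreated. The RNA methyltransferase gene NOP2 rose by 0.84 ± 0.10, the assembly factor gene RRS1 by 1.29 ± 0.15 and the helicase gene DDX21 by 0.87 ± 0.11. NOP16 had the largest change of the list, at 8.80, 8.98 and 8.99 at 240 min and at 6.87, 7.88 and 7.43 untreated, with replicate 1 the lowest untreated array (0.97 to 1.77 over the alternatives). In 36 of the 40 genes all 3 arrays at 240 min lay above all 3 untreated arrays, beside 23.1% of all genes tested. Genes for the ribosomal proteins themselves did not move with them: of 39 tested, 1 rose, none fell and the median was 0.09. That 1 was RPL32 at 0.48 ± 0.13, a call lost without replicate 3 of the untreated arrays. Ribosomal protein genes have many near-identical pseudogenes, which makes their array values uncertain. Of 28 translation initiation factor genes, 12 rose and 1 fell, with a median of 0.37 and 7 of the 12 held throughout. Over all genes tested, 13.5% were called higher and 6.21% lower. EIF4E, the factor that binds the mRNA cap, stood at 8.66, 8.76 and 8.93 at 240 min and at 7.19, 7.56 and 7.70 untreated, and EIF2B2 rose by 0.78 ± 0.10.

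Of 14 G1 cyclin and cell cycle entry genes, 6 rose and 2 fell, beside 13.5% and 6.21% of all genes. The median was 0.32, and 3 of the 6 rises held in every alternative. CDK6, a kinase partner of cyclin D, stood at 8.98, 9.09 and 8.95 at 240 min and at 7.89, 8.31 and 7.57 untreated. CCND1, which encodes cyclin D1, stood at 8.76, 8.98 and 8.63 at 240 min and at 8.34, 8.25 and 8.09 untreated, a rise of 0.56 ± 0.11 without overlap. E2F3 rose by 0.87 ± 0.12, whereas E2F2 changed by -0.67 ± 0.13 (-0.88 to -0.38) and CCNE2, which encodes cyclin E2, by -0.59 ± 0.17, a call lost in 3 alternatives. Of 31 DNA replication genes, 6 fell and 1 rose, with a median of -0.15, and only PRIM1 and POLA2 among the 7 held in every alternative. PRIM1, a subunit of primase, stood at 6.40, 6.33 and 6.03 at 240 min and at 6.96, 7.24 and 7.23 untreated. POLA2, a subunit of DNA polymerase alpha, stood at 6.53, 6.70 and 6.80 at 240 min and at 7.29, 7.19 and 7.35 untreated. In both, the 240 min arrays lay wholly below. The others that fell, CDC6, PCNA, MCM5 and MCM10, changed by -0.52, -0.38, -0.38 and -0.36. The 2 genes that fell among 31 mitosis genes, NUSAP1 and TOP2A, lost their calls in 2 and 3 alternatives, and none rose. Over all genes tested, 13.5% were called higher and 6.21% lower.

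**Figure D3:**
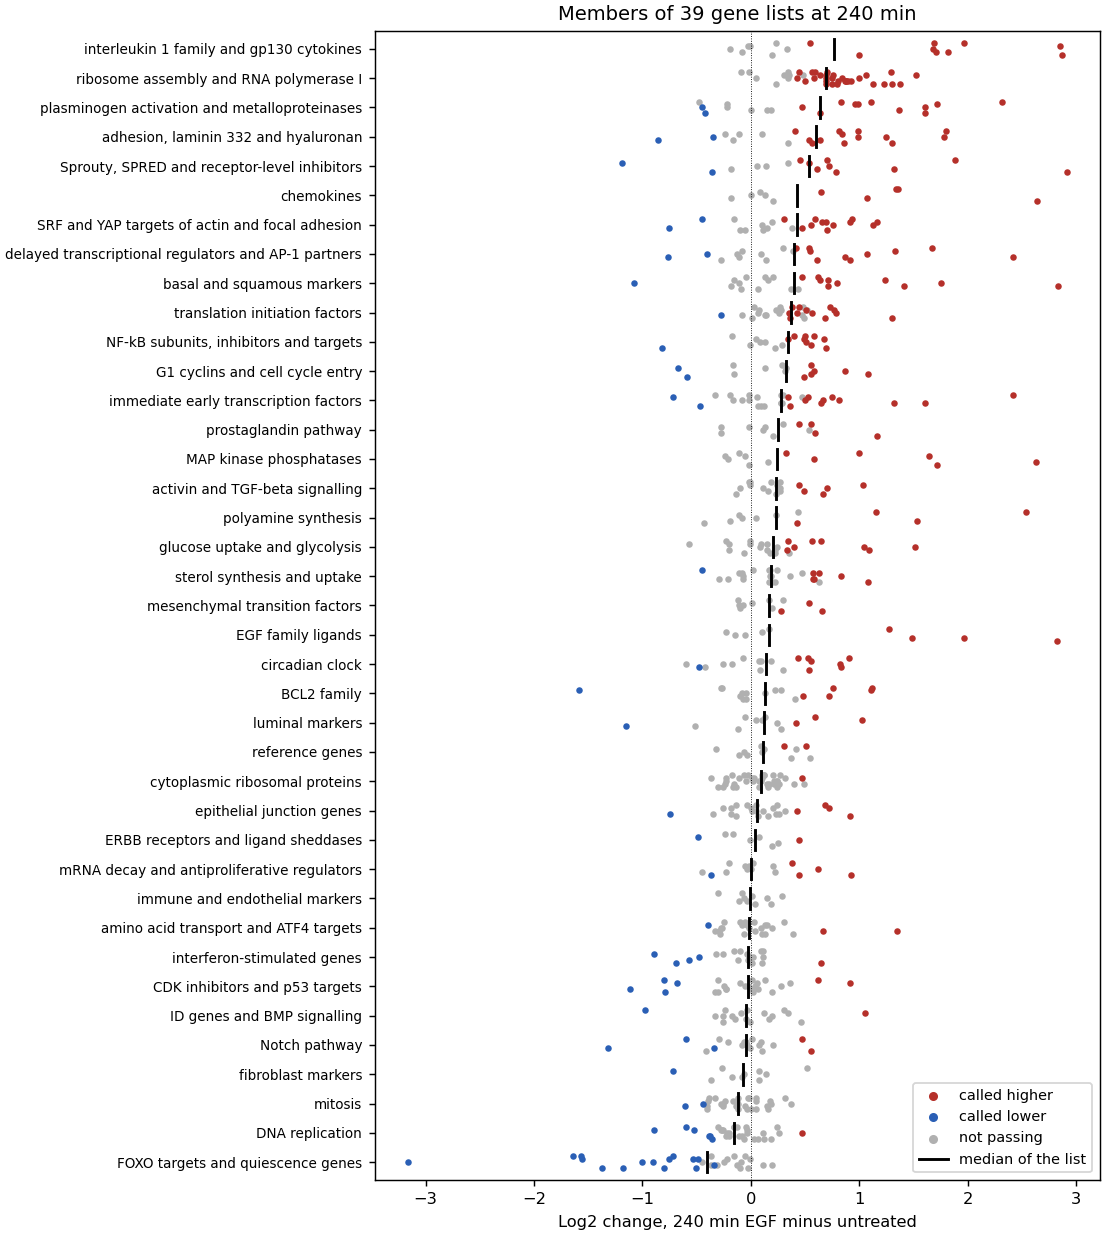
Log2 change at 240 min of EGF minus untreated (horizontal) of the tested members of 39 gene lists, ordered from the highest to the lowest list median (black bars). Red points are members called higher, blue members called lower and grey the rest, and the medians run from 0.77 for interleukin 1 family and gp130 cytokines to -0.41 for FOXO targets and quiescence genes.

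Of 11 polyamine genes, 4 rose and none fell, beside 13.5% and 6.21% of all genes, with a median of 0.23. Beside ODC1, SMOX, which oxidises spermine, stood at 8.13, 8.29 and 8.13 at 240 min and at 6.86, 6.63 and 6.45 untreated, and AMD1, which makes the aminopropyl donor, rose by 1.16 ± 0.18. Of 24 genes for glucose uptake and glycolysis, 8 rose and none fell, with a median of 0.20 and 4 of the 8 held throughout. The glucose transporter gene SLC2A3 stood at 7.38, 7.50 and 7.21 at 240 min and at 6.19, 5.78 and 5.58 untreated (a rise of 1.51 ± 0.16, with a range of 1.00 to 1.82), HK2, a hexokinase gene, rose by 1.05 ± 0.14 and the lactate transporter gene SLC16A1 by 1.09 ± 0.19. Of 25 sterol genes, 6 rose and 1 fell, with a median of 0.19, led by HMGCS1, an early enzyme of cholesterol synthesis, at 1.08 ± 0.16. Of 25 amino acid transport and ATF4 target genes, 2 rose and 1 fell, with a median of -0.02, both shares below the 13.5% and 6.21% of all genes. Of these, MTHFD2, a mitochondrial folate enzyme, stood at 9.03, 9.07 and 9.002 at 240 min and at 7.66, 7.80 and 7.59 untreated. TRIB3 rose by 0.67 ± 0.15, a call lost when dim probesets were kept, and DDIT3, at -0.40 ± 0.12, lost its call in 7 alternatives. In the prostaglandin pathway 4 of 12 rose and none fell, with a median of 0.25, and the cyclooxygenase genes differed: PTGS1 stood at 7.54, 7.85 and 7.53 at 240 min and at 6.67, 6.29 and 6.47 untreated, while PTGS2, at 0.44 ± 0.16, lost its call in 12 of 17 alternatives.

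The lists of other signalling pathways differed in how many members changed. Over all genes tested, 13.5% were called higher and 6.21% lower. Of 18 ID and BMP genes, 1 rose and 1 fell, with a median of -0.04. BMP2 stood at 8.08, 8.17 and 8.20 at 240 min and at 7.04, 7.15 and 7.10 untreated, and ID3, an inhibitor of basic helix-loop-helix factors that BMP signalling induces, at 8.49, 8.46 and 8.65 at 240 min and at 9.47, 9.63 and 9.44 untreated. Both pairs of groups lay apart. Of 18 activin and TGF-beta genes, 5 rose and none fell, with a median of 0.24. They included the activin antagonist gene FST at 1.04 ± 0.14 and SMAD3 at 0.67 ± 0.09. INHBA, an activin subunit gene, rose by 0.49 ± 0.11, or from 0.34 to 1.11 depending on the setting. In the Notch pathway 2 of 18 rose and 3 fell, with a median of -0.04. NOTCH1 stood at 8.13, 8.22 and 8.04 at 240 min and at 9.52, 9.44 and 9.39 untreated, with all of its 40 probesets lower, and the ligand genes split, JAG2 at -0.60 ± 0.10 and JAG1 at 0.56 ± 0.10. Of 20 interferon-stimulated genes, 4 fell and 1 rose, with a median of -0.03, among them STAT2 at -0.69 ± 0.13 and IFIT1 at -0.90 ± 0.18 (-1.44 to -0.44 over the alternatives). Of 18 circadian clock genes, 7 rose and 1 fell, with a median of 0.14 and 3 of the 7 held throughout. NPAS2 and BMAL1, which form activating dimers of the clock, rose by 0.91 ± 0.12 and 0.82 ± 0.14.

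Among genes of cell identity, members of a joint list of basal and squamous markers rose more often than they fell. None of the 6 basal markers fixed for the label passed, with changes from -0.15 for KRT14 to 0.20 for CDH3. Of 22 basal and squamous markers, 10 rose and 1 fell, with a median of 0.40. S100A2 stood at 9.78, 9.76 and 9.96 at 240 min and at 8.24, 8.28 and 7.73 untreated, IVL, which encodes involucrin of the cornified envelope, rose by 1.42 ± 0.13 and KRT6B by 1.24 ± 0.12. KRT15, a keratin of the basal layer, was the 1 that fell, at 9.35, 9.46 and 9.50 at 240 min and at 10.37, 10.55 and 10.62 untreated. Of 12 luminal markers, 3 rose and 1 fell, with a median of 0.12. GATA3, a luminal transcription factor gene, stood at 6.58, 6.52 and 6.79 at 240 min and at 7.93, 7.62 and 7.78 untreated, XBP1 rose by 1.02 ± 0.12 and KRT18 by 0.59 ± 0.11. The oestrogen receptor gene ESR1 averaged 5.99 at 240 min and 5.95 untreated. Of 24 epithelial junction genes, 4 rose and 1 fell, with a median of 0.06, which is near the 13.5% higher and 6.21% lower of all genes tested. CLDN4 rose by 0.69 ± 0.14 (0.41 to 1.08) and GRHL3, a barrier transcription factor gene, fell by 0.75 ± 0.16. Of 11 mesenchymal factors, 3 rose and none fell, with a median of 0.17, and of these S100A4 and FN1, at 0.66 ± 0.15 and 0.54 ± 0.14, held in every alternative while ZEB1, at 0.28 ± 0.10, did not. Of 10 fibroblast markers, COL1A1 fell by 0.71 ± 0.12 and the others did not pass, with a median of -0.07. Of 10 immune and endothelial markers none was called, with a median of -0.01. Among 12 reference genes ACTB and TFRC rose by 0.31 ± 0.10 and 0.51 ± 0.16, calls lost in 7 and 4 alternatives, with a median of 0.11. Over all genes tested, 13.5% were called higher.

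The neighbouring times show how far the 240 min state was still moving. Against 120 min, 256 genes differed (1.54%), 74 higher (0.445%) and 182 lower (1.1%), and against 240 min, 480 min had 245 different genes (1.47%), 130 higher (0.782%) and 115 lower (0.692%). These comparisons share the 240 min arrays. Against untreated cells, which all of the following comparisons share, 2395 genes differed at 120 min (14.4%, with 11.2% of all genes higher and 3.21% lower), 3281 at 240 min and 3755 at 480 min (22.6%, with 15.5% higher and 7.11% lower). The counts between neighbouring times depended on single arrays: at 240 min against 120 min they lay between 36 and 68 higher and between 86 and 208 lower with 1 array left out, and at 480 min against 240 min between 57 and 116 higher and between 53 and 76 lower.

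Immediate early genes were the clearest group that dropped between 120 and 240 min. Of 29 tested, 9 were lower and none higher, beside 1.1% and 0.445% of all genes. The list median was -0.37, beside -0.01 over all genes. NR4A3, an orphan nuclear receptor gene, fell by 1.68 ± 0.14 from 120 min, EGR3 by 1.59 ± 0.18, FOSB by 1.44 ± 0.12 and NR4A1 by 1.16 ± 0.12. FOSB stood at 5.48, 5.26 and 5.15 untreated, between 8.50 and 8.93 at 60 min, at 6.78, 6.89 and 6.82 at 120 min and at 5.48, 5.28 and 5.41 at 240 min, where it overlapped the untreated arrays. The feedback genes ERRFI1, DUSP6 and DUSP5 were also lower than at 120 min, by -1.10 ± 0.13, -1.004 ± 0.11 and -0.87 ± 0.13, and so was PLAUR, the urokinase receptor gene, by -1.24 ± 0.10, while all 4 remained above untreated. The largest drop in any gene was that of GEM, a small GTPase gene, at -2.05 ± 0.15. Other falls were still deepening: DAPK1 and SESN3 changed by -1.37 ± 0.11 and -1.12 ± 0.16 between 120 and 240 min, after -0.43 and -0.44 between untreated and 120 min. Genes still rising included NT5E at 0.91 ± 0.19, PAQR5 at 0.82 ± 0.11 and FERMT1 at 0.81 ± 0.11. After 240 min MMP1 and MMP10 rose further, by 2.12 ± 0.13 and 2.0 ± 0.14, and PLAT and KRT15 changed by -1.23 ± 0.09 and -1.20 ± 0.10.

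The level at 240 min was above both neighbours in 3 genes (0.0181%) and below both in 15 (0.0903%). The 3 were ETS1, the muscarinic receptor gene CHRM3 and the thyroid hormone receptor gene THRB. ETS1 stood at 8.20, 8.38 and 8.61 at 120 min, at 9.13, 9.03 and 8.90 at 240 min and at 8.49, 8.38 and 8.50 at 480 min, and THRB at 7.62, 7.51 and 7.68 at 240 min, above every array of 120 and 480 min. These 3 calls were sensitive: between 0 and 3 genes passed with 1 array left out, and the differences of ETS1 from 120 and 480 min failed in 6 and 8 of 17 alternatives. The 15 below both neighbours were ATF7IP, CCNE2, CTDSPL2, CYP27B1, DENND5B, DSN1, DTL, FAM111B, JAG1, MBNL2, PRIM1, PTGS2, TGFBR3, TNRC6C and ZEB1, and between 3 and 13 passed with 1 array left out. Only MBNL2, a splicing regulator gene, passed both tests in all 17 alternatives. It changed by -1.06 ± 0.10 between 120 and 240 min and by 0.54 ± 0.10 between 240 and 480 min. PTGS2 stood between 9.14 and 9.31 at 60 min, at 7.40, 6.98 and 7.40 at 120 min, at 5.91, 6.29 and 5.996 at 240 min and at 6.71, 6.66 and 6.79 at 480 min, and its difference from 480 min failed in 9 alternatives.

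Several of the 15 serve DNA replication or its control. Between 240 and 480 min 9 of 31 DNA replication genes rose and none fell, beside 0.782% and 0.692% of all genes. The list median was 0.30, beside 0.02 over all genes. Between 120 and 240 min 1 of the 31 fell, beside 1.1% of all genes, with a median of -0.22. DTL, an adaptor of the ubiquitin ligase that removes the replication licensing factor CDT1, stood at 7.05, 7.26 and 7.37 untreated, at 6.96, 7.28 and 7.83 at 120 min, at 6.41, 6.54 and 6.42 at 240 min and at 8.47, 7.89 and 8.32 at 480 min. The 240 min arrays were the lowest of those 4 times. CDC6, which loads the replicative helicase, stood at 6.67, 6.80 and 7.20 untreated, at 6.22, 6.47 and 6.39 at 240 min and at 7.83, 7.35 and 7.97 at 480 min. PRIM1 changed by -0.84 ± 0.15 between 120 and 240 min and by 0.92 ± 0.15 between 240 and 480 min. The fall of DTL from 120 min failed in 4 alternatives and that of CDC6 did not pass (adjusted p = 0.0998), while both rises to 480 min passed in all 17.

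The promoters of DTL, which is among the 15, and of POLA2 and PCNA, members of the replication list that fell against untreated, are shown because each holds a match to TTTNNCGC, the letters bound by E2F, the factor family that controls S phase genes. They are DTL on the plus strand of chr1:212035498-212035747, POLA2 on the plus strand of chr11:65261712-65261961 and PCNA, the sliding clamp of DNA polymerase, on the minus strand of chr20:5126623-5126872 of GRCh38.p14, from the RefSeq table, with the match in capitals.
DTL: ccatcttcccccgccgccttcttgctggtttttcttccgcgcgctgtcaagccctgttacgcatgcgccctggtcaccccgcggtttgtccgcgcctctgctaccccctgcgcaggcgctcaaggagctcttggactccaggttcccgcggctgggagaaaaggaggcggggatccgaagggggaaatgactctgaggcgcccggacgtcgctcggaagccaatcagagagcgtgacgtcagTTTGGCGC
POLA2: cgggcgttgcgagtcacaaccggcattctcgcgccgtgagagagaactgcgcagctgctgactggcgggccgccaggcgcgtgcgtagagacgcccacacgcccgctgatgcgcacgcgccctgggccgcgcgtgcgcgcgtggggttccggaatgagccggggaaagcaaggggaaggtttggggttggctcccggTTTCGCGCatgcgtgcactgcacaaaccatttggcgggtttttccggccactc
PCNA: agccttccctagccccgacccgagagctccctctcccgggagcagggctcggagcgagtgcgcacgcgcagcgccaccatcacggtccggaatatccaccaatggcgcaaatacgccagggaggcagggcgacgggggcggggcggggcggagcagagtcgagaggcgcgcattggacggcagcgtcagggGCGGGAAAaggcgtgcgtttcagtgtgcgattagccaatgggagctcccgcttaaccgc
The match began 8, 53 and 59 bases before the starts of DTL, POLA2 and PCNA, and in PCNA it is on the other strand, where it reads TTTNNCGC. Promoters of the DNA replication list held it in 13 of 28 (46.4%), against 8.05% of the promoters of tested genes and 5.93% of all, and those of genes lowest at 240 min held it in 1 of 12. It was held by 8.42% of 1828 promoters of genes called higher, 9.44% of 826 of those called lower and 2 of 46 of those lower by 1 or more. The high share was taken over the whole replication list, and it was not split by whether the genes fell.

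**Figure D4:**
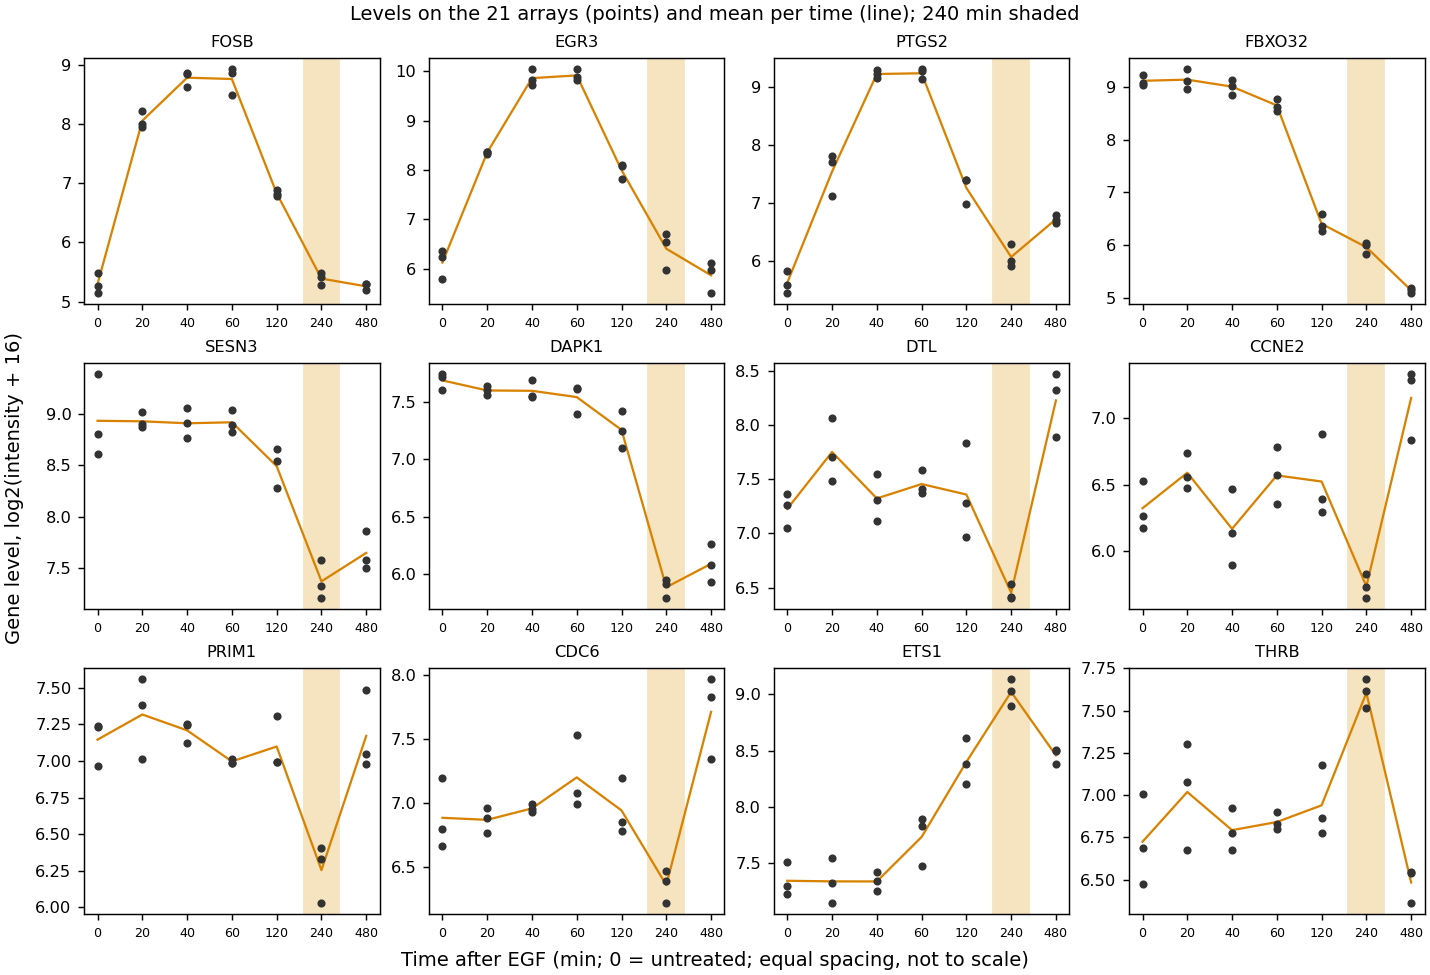
Levels (log2 of intensity plus 16, vertical, with a separate range per panel) of 12 genes on the 21 arrays against time after EGF in min, with equal spacing between times. Points are arrays, the line joins the means and 240 min is shaded, where FOSB and EGR3 are back near untreated, FBXO32 is low, DTL, CCNE2, PRIM1 and CDC6 are at their lowest mean, and ETS1 and THRB at their highest.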

How the data were processed

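Expression was measured on 21 Affymetrix arrays, 3 at each of 7 times. The authors deposited 1 table of linear probeset intensity values. Per the submitters' processing notes, Affymetrix Expression Console 1.1 and PLIER were used, with settings not given in those notes. From the deposited intensity values, log2(intensity + 16) was computed. Of 1384231 probesets, 354600 were annotated to 1 gene symbol, 14898 to several and 1014733 to none. Single-gene probesets were kept if their mean over the arrays reached the overall probeset median (261183), and a gene needed at least 3 of them, which left 16614 of 18589 genes. The gene value is the median of its probesets. No detection calls were used, so a low level may be background. Symbols were updated with the GRCh38.p14 RefSeq table: 16426 of 19497 were current, 2950 were synonyms and 121 were kept as annotated.

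1 mean per time was fitted to all 21 arrays in R 4.3.3 by the moderated linear models of limma 3.58.1, and p-values were adjusted by Benjamini-Hochberg over all genes. The residual degrees of freedom were 14, and the median SE of a change was 0.136. The fit was tested on simulated data. The rule for named genes took the 15 largest called rises and 15 largest called falls with groups apart, up to 4 members of each of 39 gene lists with the smallest adjusted p, all members of a list with at most 2 called, and the 6 genes highest and 6 lowest at 240 min against both neighbouring times. Other list members, the remaining genes lowest at 240 min and genes with large changes between neighbouring times, such as GEM, were named after their values were seen. The members and the lists were chosen with earlier results of these data known. The 17 alternatives changed the scaling, pseudocount, probeset filter, probeset summary, covariates or arrays used. Some listed genes were not analysed here. Replicate letters were not taken to pair the arrays, since not every same-letter correlation of deviations exceeded 0.1: they were -0.07, -0.04 and 0.00 at 240 and 0 min, 0.35, -0.06 and 0.27 at 240 and 120 min, and -0.19, 0.07 and 0.25 at 480 and 240 min.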

Additional observations from a re-analysis of the deposited data

Results flagged for a closer look

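10 genes moved in opposite directions from untreated cells at 240 min and at a neighbouring time, with each of the 3 differences called by limma's contrasts. The comparisons with untreated cells share the untreated arrays. Each difference between the times compared was itself tested and does not use those arrays. 5 of them serve or accompany DNA replication and were below untreated at 240 min and above it at 480 min. Against untreated, the 240 min calls of CDC6, MCM10 and CCNE2 failed in 5, 6 and 3 of 17 alternatives. DTL changed by -0.77 at 240 min and by 1.00 at 480 min, a difference of 1.77 ± 0.19 (SE, limma adjusted p = 9.1e-06). CCNE2 changed by -0.59 and 0.83, a difference of 1.415, and CDC6 by -0.52 and 0.83, a difference of 1.352. MCM10 changed by -0.36 and 0.40, a difference of 0.764, and WDR76 by -0.39 and 0.37, a difference of 0.766.

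FLRT2, a membrane protein gene of cell adhesion, changed by -0.51 at 240 min and 0.66 at 480 min, a difference of 1.17. TGM1, the transglutaminase of the cornified envelope, went the other way, with 0.47 at 240 min, -0.91 at 480 min and a difference of -1.387. The remaining 3 genes were above untreated at 120 min and below it at 240 min. STK38L, a kinase gene, changed by 0.57 at 120 min and -0.50 at 240 min, a difference of -1.069. DNAJB1, a heat shock co-chaperone gene, changed by 0.42 and -0.46, a difference of -0.877, and the clock repressor gene PER1 by 0.31 and -0.48, a difference of -0.787.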

How the results depend on the processing

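Of 299 named or listed genes called at 240 min against untreated, 213 passed in every alternative, 36 failed in 1 to 3 and 50 in 4 or more. The number lower than untreated was 1662 with the array index as covariate, and the other full-data alternatives left both counts within 1.5 times. With 1 array left out the counts lay between 1479 and 1989 higher and between 706 and 871 lower. At 240 min against 120 min, the mean of the probesets gave 134 higher and 325 lower, the index 224 and 279, and only the arrays compared 31 and 88. At 480 min against 240 min, the mean gave 238 higher and 220 lower and the index 289 and 346. With 1 array left out, these comparisons gave 36 to 68 higher and 86 to 208 lower, and 57 to 116 higher and 53 to 76 lower. Genes highest at 240 min numbered 1 with pseudocount 1, 8 with pseudocount 64, 1 with no filter, 5 with the filter at the 75th percentile, 9 with the mean, 23 with the index and 0 to 3 with 1 array left out. Genes lowest numbered 9 with no filter, 30 with the mean, 34 with the index, 3 with only the arrays compared and 3 to 13 with 1 array left out. Signs turned for KDR (-0.12) and PTPRC (-0.0934) with no filter, for NFIL3 (0.24), SPRED3 (-0.47) and PDK4 (0.28) with the 75th percentile filter and for HNRNPD (0.0241) with the mean. The cause of these changes was not tested. The replicate block, for letters that share only a label, gave 2159 higher and 977 lower against untreated, 62 and 157 against 120 min, and 118 and 96 at 480 min against 240 min. The number of arrays and the background signal of dim probesets limit what small changes can be seen.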
